A study of Homo sapiens with 54 samples.

Results

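Macrozamin was added to a pair of Sophora alkaloids in cultured breast cancer cells, and the RNA of cells that received all 3 compounds was compared with the RNA of cells that received the alkaloids alone. The comparison rests on 6 of the 54 sequenced libraries of the series, chosen by their labels: 3 libraries labelled MOO and 3 labelled OO, all taken after 48 h and all of batch 1. The cells were MDA-MB-231, an established line from a human triple-negative breast carcinoma. OO cells were given oxymatrine and oxysophocarpine, and MOO cells were given macrozamin, oxymatrine and oxysophocarpine, each at the concentration present in Compound Kushen Injection (CKI) at 2 mg/ml. Both groups therefore carried the same alkaloids, and no other component of CKI was present in either. Untreated cells (UT) of the same time and batch, 3 libraries, give the reference level. In the same series macrozamin is also present in one group and absent from the other in whole CKI against CKI lacking macrozamin (N-Mac, 48 h, batch 2), and in CKI lacking both alkaloids (N-OmtOspc) against CKI lacking all 3 compounds (N-MacOmtOspc, 48 h, batch 1). MOO and OO were sampled at 24 h too. No group received macrozamin alone among the libraries analysed here, one concentration was used, and everything was measured in a single cell line, with 3 libraries per group that the design describes as biological replicates.

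Macrozamin is an azoxy glycoside known from cycads, and its sugar-free part, methylazoxymethanol, is a DNA-alkylating agent once released. Oxymatrine and oxysophocarpine are N-oxides of the matrine type of quinolizidine alkaloids and come from the root of Sophora flavescens, one of the plants from which CKI is made. The gene groups described here follow what is known of such cells under treatment. Replication and mitosis genes are switched on by E2F factors and by the complexes that bind cell cycle elements in their promoters. The unfolded protein response raises chaperones of the endoplasmic reticulum, and its ATF4 and CHOP arm raises stress factors. SREBP factors drive sterol and fatty acid synthesis, and YAP with TEAD drives genes of adhesion and matrix.

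Total counts in the 6 libraries lay between 21124745 and 23304832, so depth was close to equal. The root mean square difference in log2 CPM (CPM, reads per 1e6 of the TMM-adjusted library size, is the unit of every level given here) was between 0.241 and 0.267 for libraries of one group and between 0.281 and 0.298 for libraries of different groups. The groups were thus apart, but by little more than the replicates were. MOO replicate 2 stood furthest from its group, with a chi-square over degrees of freedom of 6.96 and 5.47 against the other MOO replicates, where the remaining replicate pairs of both groups lay between 2.31 and 2.75. The 5 markers of MDA-MB-231 cells (VIM, CD44, AXL, CAV1 and MSN) summed to between 2680 and 2780 CPM in OO and between 3010 and 3050 in MOO. Luminal breast markers summed to between 1140 and 1230 CPM in OO and between 1310 and 1430 in MOO, nearly all of it KRT8, KRT18 and KRT19, and the estrogen and progesterone receptor genes ESR1 and PGR were at or near 0. Fibroblast markers summed to 27.6 to 31.3 CPM in OO and 28.7 to 32.7 in MOO, leukocyte markers to 110 to 117 and 105 to 116, and endothelial markers to 11.9 to 12.8 and 10.7 to 11.3. DCN and THY1 among the fibroblast markers had no read in either group. The part of the keratin and MDA-MB-231 marker differences in the results below was not tested.

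Adding macrozamin changed many genes by a small amount. Of 14421 genes tested, 1402 (9.72%) were differentially expressed (DE), meaning an adjusted p-value under 0.05 in edgeR's quasi-likelihood test. Of these, 851 (5.9%) were higher in MOO and 551 (3.82%) were lower. These shares of all genes are the reference for every list count below. The median DE gene that rose did so by 20.0%, and the median DE gene that fell did so by 15.7%. At a log2 fold change of at least 1 in either direction as well, 19 genes remained (0.132%), 6 higher and 13 lower. The median over all genes tested was -0.00293 on the log2 scale. For 3910 genes (27.1%) no MOO value overlapped an OO value, 2013 of them (14%) with MOO higher and 1897 (13.2%) with MOO lower. The count of DE genes depended on single libraries: it was 2246 without MOO replicate 2, 888 without OO replicate 1, 855 without OO replicate 2, 888 without OO replicate 3 and 918 without MOO replicate 3. No gene DE with all 6 libraries was DE in the opposite direction in any of these fits. With the spread set by all libraries of the same batch and time 307 genes were DE, and with all 54 libraries 27.

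**Figure D1:**
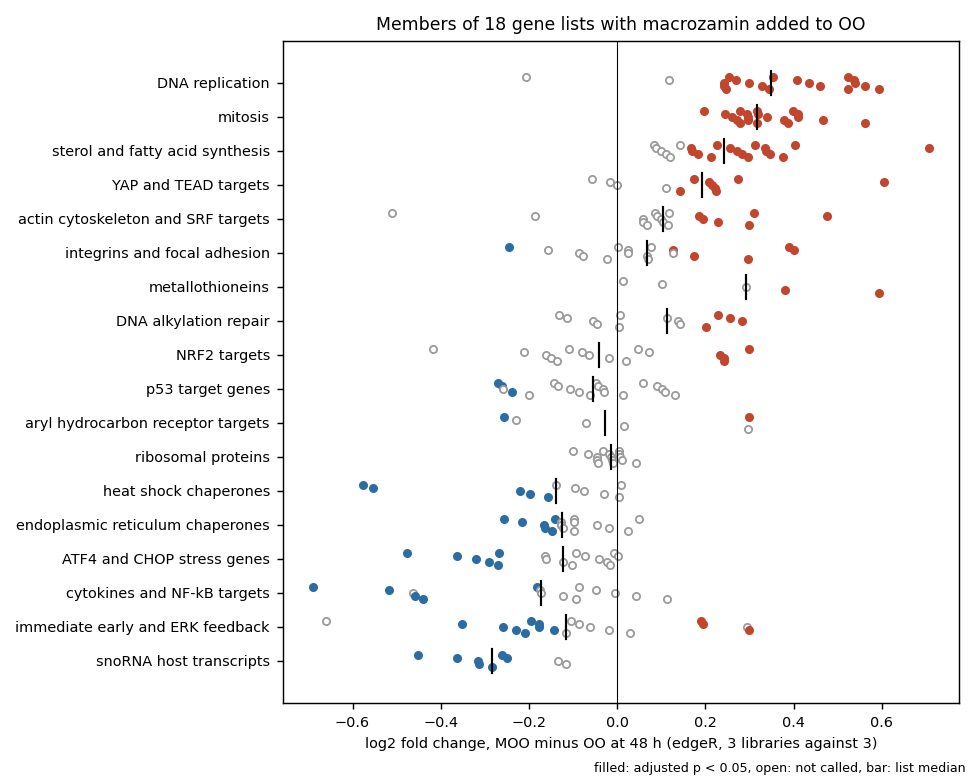
Log2 fold changes of MOO over OO at 48 h for the measured members of a selection of the gene lists, one point per gene, with DE genes marked apart from genes that were not DE. All 20 mitosis genes sit right of 0, and all 9 snoRNA host transcripts sit left of it.

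Genes of DNA replication were higher with macrozamin. Of 20 measured, 18 were DE and higher and none was DE and lower, against 5.9% of all genes, with a median log2 fold change of 0.349 beside -0.00293 over all genes tested. In 18 of the 20 the MOO and OO values did not overlap, with MOO higher, which held for 14% of all genes. MCM3, a subunit of the helicase that opens DNA at replication origins, had 91.0, 91.3 and 90.9 CPM in the 3 OO libraries and 126, 133 and 137 in the 3 MOO libraries. Every MOO library was well above every OO library. Its log2 fold change was 0.54 ± 0.046 (SE, adjusted p = 1.71e-07), a rise of 45.0%. The untreated level was 324 ± 6.11 CPM (SD, n = 3), so MCM3 in MOO stayed below it.

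TYMS, which makes the thymidine nucleotide for DNA, read 21.3, 18.8 and 20.0 CPM with OO and 31.0, 29.8 and 27.7 with MOO. The groups lay apart, with a log2 fold change of 0.56 ± 0.069 (SE, adjusted p = 1.43e-05), and the untreated mean was 91.7 CPM. PCNA, the sliding clamp of the DNA polymerases, went from 43.0, 44.4 and 41.7 to 65.4, 59.1 and 60.7 CPM, again with no overlap (log2 fold change 0.52, adjusted p = 1.56e-06). The low-expressed CCNE2, a cyclin of S phase entry, had 4.27, 4.31 and 5.66 CPM against 7.64, 6.03 and 7.86 and the largest log2 fold change of the list, 0.59 ± 0.14 (SE, adjusted p = 0.00715). CCNE2 lost its call without OO replicate 1. GINS2, of the complex that travels with the replicative helicase, had 5.94, 7.28 and 5.53 against 8.80, 9.32 and 9.12 CPM (log2 fold change 0.54, adjusted p = 0.00312). The other MCM subunits rose by between 0.25 for MCM7 and 0.52 for MCM6 on the log2 scale, and E2F1, the factor that activates many of these genes, by 0.34. CDC6, which loads the helicase, was not DE at 0.12 (adjusted p = 0.154), nor was the cyclin CCNE1 at -0.21 (adjusted p = 0.178), the single member with a negative value. UHRF1 and LMNB1 are not on the list and were picked after their values were seen, among the genes of smallest p. UHRF1, which keeps DNA methylation through replication, read 31.1, 29.9 and 28.5 CPM with OO and 44.3, 54.0 and 46.3 with MOO (log2 fold change 0.70, adjusted p = 8.05e-07), and the lamin gene LMNB1 26.4, 27.6 and 28.7 and 40.5, 39.5 and 43.7 (log2 fold change 0.58, adjusted p = 1.57e-06).

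The mitosis list moved as a whole. All 20 measured genes were DE and higher in MOO, and in all 20 the groups did not overlap. The log2 fold changes ran from 0.197 for TPX2 to 0.561 for KIF20A, with a median of 0.317. KIF20A, a kinesin of cell division, had 21.8, 22.2 and 23.2 CPM with OO and 34.4, 30.8 and 33.9 with MOO, a log2 fold change of 0.56 ± 0.065 (SE, adjusted p = 7.04e-06). TOP2A, the topoisomerase that untangles chromosomes, read 170.0, 169 and 182 and 245, 227 and 247 CPM (log2 fold change 0.47, adjusted p = 1.3e-06). In both genes the lowest MOO library was replicate 2 and still lay over the highest OO library. The kinase gene CDK1 went from 50.9, 51.6 and 52.6 to 69.9, 64.1 and 71.6 CPM (log2 fold change 0.41, adjusted p = 2.54e-05), and PLK1, a kinase of spindle assembly, from 55.6, 56.7 and 59.5 to 74.2, 79.0 and 74.7 (log2 fold change 0.41, adjusted p = 1.38e-05). MKI67, whose protein marks cycling cells, was at 121, 136 and 140.2 CPM in OO and 169.6, 148 and 176 in MOO (log2 fold change 0.32, adjusted p = 0.00156), with 276 ± 24.2 CPM (SD, n = 3) in untreated cells. In none of the 20 did the MOO mean reach the untreated mean. In RNA from a whole culture, more dividing cells and more transcript per dividing cell cannot be told apart.

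Many mitosis genes share short promoter elements, and 6 stretches of promoter are shown for that reason. RefSeq promoters (GRCh38.p14, 250 bases before to 50 after the start) matched 15 of the 20 genes by symbol. The cell cycle homology region was searched as TTTGAA and the CCAAT box as CCAAT, on both strands, and the CCAAT box was added after the data had been seen. TTTGAA lay in 9 of the 15 mitosis promoters (60%), against 15.4% of all 27305 promoters and 9.44% of the promoters of genes tested. CCAAT lay in 13 of the 15 (86.7%), against 35.7% and 36.3%. Among genes with a matched promoter, TTTGAA was found in 17% of those DE and higher and in 8.49% of those DE and lower, while CCAAT was found in 42% and 36.3%. A match is a description of letters and not a shown binding site. The 120 bases before the start are given 5′ to 3′ on the gene's strand for the 6 genes with TTTGAA in that stretch, with matches to either motif on either strand in capitals (TTTGAA reads TTCAAA and CCAAT reads ATTGG on the other strand, and in MKI67 a match of each overlaps).
PLK1, chr16:23678769-23678888 (+): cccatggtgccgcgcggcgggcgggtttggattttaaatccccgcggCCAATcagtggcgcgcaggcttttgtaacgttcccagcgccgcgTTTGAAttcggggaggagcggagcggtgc
BUB1B, chr15:40160949-40161068 (+): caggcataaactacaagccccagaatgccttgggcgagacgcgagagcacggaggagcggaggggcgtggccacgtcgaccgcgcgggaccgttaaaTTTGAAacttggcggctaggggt
MKI67, chr10:128126424-128126543 (-): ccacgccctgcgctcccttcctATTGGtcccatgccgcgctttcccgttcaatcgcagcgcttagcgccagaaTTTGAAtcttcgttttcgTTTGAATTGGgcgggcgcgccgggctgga
CDC20, chr1:43358861-43358980 (+): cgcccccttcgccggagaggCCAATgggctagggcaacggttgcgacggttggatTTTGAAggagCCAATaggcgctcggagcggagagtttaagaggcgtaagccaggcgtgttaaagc
KIF11, chr10:92593010-92593129 (+): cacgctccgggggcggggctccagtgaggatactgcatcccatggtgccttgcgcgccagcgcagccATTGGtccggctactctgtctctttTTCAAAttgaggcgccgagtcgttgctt
CCNB2, chr15:59105026-59105145 (+): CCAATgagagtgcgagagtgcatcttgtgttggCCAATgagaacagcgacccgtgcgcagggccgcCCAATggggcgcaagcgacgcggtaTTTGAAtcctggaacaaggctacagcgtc

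In 5 of these 6 promoters the match to TTTGAA nearest the start began between 23 and 29 bases before it, at 29 in PLK1, MKI67 and CCNB2, 28 in KIF11 and 23 in BUB1B, and in CDC20 it began at 65. A CCAAT match lay further upstream of it in 5 of the 6, the exception being BUB1B, which had none. The log2 fold changes of these genes were 0.41 for PLK1, 0.32 for BUB1B, 0.32 for MKI67, 0.30 for CDC20, 0.29 for KIF11 and 0.24 for CCNB2. Genes with no TTTGAA in the window rose as well: KIF20A by 0.56 and CCNA2 by 0.38. For DNA replication, 1 of 16 matched promoters (6.25%) held TTTGAA and 11 (68.8%) held CCAAT.

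Most genes of sterol and fatty acid synthesis were higher too. Of 22 measured genes, 16 were DE and higher and none lower, and all 22 values were positive, with a median log2 fold change of 0.241. FASN, fatty acid synthase, read 678, 723 and 661 CPM and 854, 985 and 882 CPM (log2 fold change 0.40, adjusted p = 1.4e-05). INSIG1, which holds the SREBP complex back in the endoplasmic reticulum and is itself an SREBP target, read 224, 203 and 204 and 273, 276 and 269 (log2 fold change 0.38, adjusted p = 1.3e-05). For INSIG1 the MOO libraries were above the untreated mean of 245 CPM, while for FASN they stayed below 1525. SQLE, an oxygenase of sterol synthesis, went from 31.6, 30.4 and 29.3 to 35.2, 40.0 and 40.6 CPM (log2 fold change 0.35, adjusted p = 0.000939). SREBF1, which encodes one of the SREBP factors, rose by 0.27 on the log2 scale. The genes that were not DE included DHCR7, SC5D, CYP51A1 and STARD4, whose values ran from 0.08 to 0.14. The liver X receptors respond to sterols, and their list had 6 genes, the receptor genes NR1H3 and NR1H2 among them. ABCA1 was DE and lower, at 117, 121 and 125 CPM with OO and 109, 101 and 107 with MOO (log2 fold change -0.19, adjusted p = 0.0108). This call was lost without OO replicate 2 or OO replicate 3, and the rest of the list was not DE.

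Some targets of YAP and TEAD, some actin genes and some integrins were higher with macrozamin. The YAP and TEAD list had 12 measured genes, among them the factor genes YAP1, WWTR1 and TEAD1 besides targets. Of the 12, 8 were DE and higher and none lower (median 0.191). CTGF, a matrix protein that is among the best known YAP targets, had 216, 224 and 208 CPM with OO and 325, 342 and 319 with MOO. The lowest MOO library was well above the highest OO library, and the log2 fold change of 0.61 ± 0.044 (SE, adjusted p = 4.44e-08) was among the smallest p-values of all genes. MOO was also above the untreated mean of 237 ± 13.2 CPM (SD, n = 3), and OO was not. AMOTL2, F3 (tissue factor) and ANKRD1 rose by 0.27, 0.22 and 0.22 on the log2 scale (adjusted p = 0.000507, 0.00102 and 0.00101), and CYR61 by 0.14. The genes of the factors themselves, YAP1 (-0.02), WWTR1 (-0.000576) and TEAD1 (0.11), were not DE.

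Of 17 genes of the actin cytoskeleton and of SRF, 6 were DE and higher and none lower (median 0.104). ACTG1, cytoplasmic gamma actin, read 1499, 1495 and 1456 CPM in OO and 1980.3, 2180.3 and 2019.6 in MOO, a log2 fold change of 0.48 ± 0.041 (SE, adjusted p = 1.72e-07). ACTB, beta actin, read 2911, 2749 and 2786 and 3363, 3546 and 3469.9 CPM (log2 fold change 0.30, adjusted p = 2.42e-05). Both actins were lower in MOO than in untreated cells, whose means were 4132 CPM for ACTG1 and 6241 for ACTB, and higher than in OO without overlap. VCL (vinculin) rose by 0.31 and MYH9 (non-muscle myosin heavy chain) by 0.23, and SRF itself was at 0.06 (adjusted p = 0.522). Of 17 integrin and focal adhesion genes, 5 were DE and higher and 1 was lower (median 0.0669), and 3 were higher without MOO replicate 3 or without any one of the OO replicates. ITGB5, the integrin beta 5 chain, read 189, 196 and 174 CPM and then 238, 259.5 and 238 (log2 fold change 0.40, adjusted p = 1.42e-05), and CAV1, of the caveolar coat, 227, 219 and 225 and 297, 283 and 298 (log2 fold change 0.39, adjusted p = 2.96e-06). ITGB1 rose by 0.30 (adjusted p = 4.9e-05). The kinase gene SRC fell, from 123, 128 and 125 CPM to 101, 112 and 105 (log2 fold change -0.24, adjusted p = 0.0016).

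Among 10 measured matrix proteases and inhibitors, 4 were DE and higher and 1 was lower (median 0.118). MMP1, interstitial collagenase, had 212, 214 and 230.3 CPM with OO and 162, 145 and 152 with MOO, a log2 fold change of -0.51 ± 0.049 (SE, adjusted p = 7.18e-07). It was the gene of the list that fell, and both groups were far above the untreated 9.50 ± 0.465 CPM (SD, n = 3). PLAU, the urokinase that activates plasminogen, rose from 262, 250.1 and 262 to 359, 351 and 335 CPM (log2 fold change 0.43, adjusted p = 1.03e-06). The inhibitors TIMP1, TIMP2 and TIMP3 rose by 0.20, 0.19 and 0.27 on the log2 scale, TIMP3 to 179.6 CPM in MOO against 894 in untreated cells. TIMP1 lost its call without OO replicate 2 or OO replicate 3. Of 11 cadherin and EMT genes 1 was DE (9.09%, beside 9.72% of all genes). It was CDH11, which was higher, with 51.1, 54.9 and 48.8 CPM with OO and 65.9, 67.3 and 68.6 with MOO (log2 fold change 0.38, adjusted p = 4.51e-05). CDH1, E-cadherin, was barely expressed, at 1.62, 1.63 and 2.29 CPM and 1.37, 1.37 and 2.05 CPM, with no call (log2 fold change -0.21, adjusted p = 0.649). VIM was at 0.13 (adjusted p = 0.0667).

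Some chaperone and stress genes were lower with macrozamin, though most members of their lists were not DE. Of 16 chaperones of the endoplasmic reticulum, 6 were DE and lower and none higher, against 3.82% of all genes, with a median of -0.125. This count rested on single libraries: it was 2 without OO replicate 1, 2 without OO replicate 3, 3 without MOO replicate 3 and 9 without MOO replicate 2, and 0 when all libraries of the same batch and time set the spread. HSPA5, the master chaperone BiP, read 8143, 7966 and 8335 CPM in OO and 7043, 6666 and 6719 in MOO. No values overlapped, and HSPA5 fell by 16.3% (log2 fold change -0.26 ± 0.037 (SE, adjusted p = 9.36e-05)). The untreated level was 1315 ± 39.8 CPM (SD, n = 3), so both treated groups were several fold above it. HERPUD1, of the degradation machinery, went from 299, 292 and 309.9 to 261, 256 and 258 CPM (log2 fold change -0.22, adjusted p = 0.0016). CANX and PDIA4, a lectin chaperone and a disulfide isomerase, fell by 0.17 and 0.16 on the log2 scale (adjusted p = 0.0111 and 0.00697), DNAJB9 by 0.15 and SDF2L1 by 0.14. CALR (0.05) and EDEM1 (0.03) had positive values and were not DE.

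Of 17 genes on the ATF4 and CHOP list, the genes of these factors among them, 6 were DE and lower and none higher (median -0.123). ATF3, a stress-induced repressor, read 71.7, 74.5 and 77.4 CPM with OO and 52.1, 53.8 and 54.6 with MOO, a fall of 28.1% (log2 fold change -0.48 ± 0.050 (SE, adjusted p = 1.83e-06)). DDIT3, which encodes CHOP, read 216, 208 and 215 and 171, 166 and 174 CPM (log2 fold change -0.32, adjusted p = 3.77e-05). In untreated cells ATF3 was at 8.59 ± 0.225 CPM (SD, n = 3) and DDIT3 at 23.1 ± 1.08 CPM (SD, n = 3). For each gene the MOO libraries thus lay between the untreated and the OO libraries, nearer to OO. CEBPB, a factor of the acute phase and stress responses, and PPP1R15A, which restores translation after stress, fell by 0.36 and 0.29 (adjusted p = 3.77e-05 and 4.03e-05), TRIB3 by 0.27 and SESN2 by 0.27. ATF4 itself (-0.04) and its targets in amino acid synthesis ASNS (-0.01), PSAT1 (-0.02) and PHGDH (-0.10) were not DE.

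**Figure D2:**
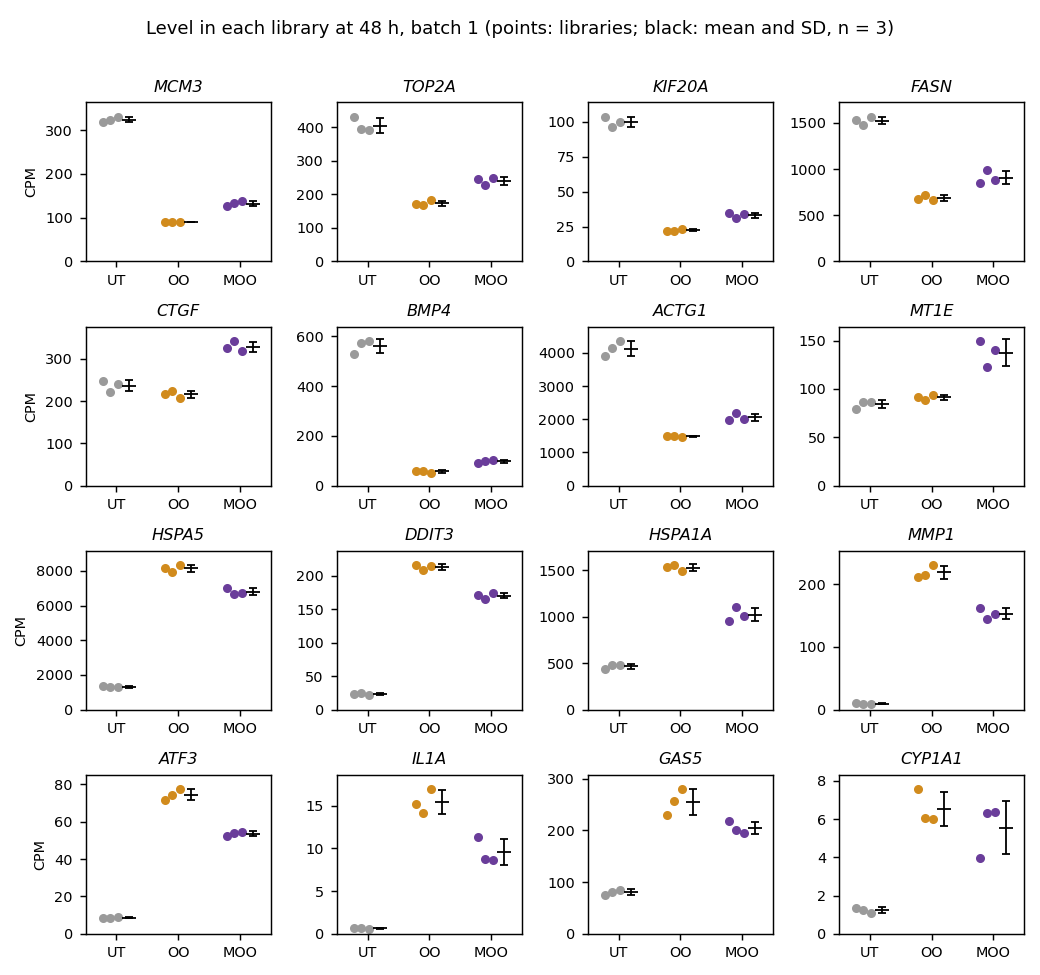
CPM, each gene on its own linear axis from 0, in each library of untreated, OO and MOO cells at 48 h for 16 genes, one point per library and 3 per group. MCM3 went from 91.0, 91.3 and 90.9 CPM in OO to 126, 133 and 137 in MOO, and HSPA1A from 1539.8, 1556 and 1490.2 to 959, 1103 and 1008, in both without overlap.

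Of 11 cytosolic and mitochondrial heat shock chaperones, 5 were DE and lower and none higher (median -0.139). HSPA1A, the inducible HSP70, had 1539.8, 1556 and 1490.2 CPM with OO and 959, 1103 and 1008 with MOO, a fall of 33.0% (log2 fold change -0.58 ± 0.046 (SE, adjusted p = 5.38e-08)). Its near-identical copy HSPA1B read 1824, 1833 and 1770.3 and 1154, 1317 and 1219 CPM (log2 fold change -0.55, adjusted p = 5.83e-08), and reads that fit both copies make the split between them uncertain. The untreated means were 466 and 559 CPM. Their partners HSPH1 and DNAJB1 fell by 0.22 and 0.20 (adjusted p = 0.00221 and 0.00319) and HSP90AA1 by 0.16. HSP90AB1 (0.01) and the mitochondrial HSPE1 (0.00798) and HSPD1 (-0.10) were not DE. HSPA6, a stress-induced HSP70 outside the list, was picked after its value was seen: it read 26.0, 26.6 and 25.8 CPM in OO and 17.0, 16.5 and 16.0 in MOO (log2 fold change -0.67, adjusted p = 1.26e-06), and shares reads with the pseudogene HSPA7.

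Cytokine genes and NF-kB targets were lower or not DE. Of 15 measured, 5 were DE and lower and none higher (median -0.174). IL1A, which encodes interleukin-1 alpha, read 15.2, 14.2 and 16.9 CPM with OO and 11.4, 8.72 and 8.60 with MOO, a fall of 38.0% (log2 fold change -0.69 ± 0.11 (SE, adjusted p = 0.000156)). All MOO libraries were below all OO libraries, and the untreated level was 0.627 ± 0.0875 CPM (SD, n = 3). CSF2, the growth factor GM-CSF, went from 12.5, 11.4 and 11.1 to 8.67, 8.25 and 7.42 CPM (log2 fold change -0.52, adjusted p = 0.00125). TNFAIP3, an inhibitor of NF-kB signalling, went from 20.0, 21.3 and 19.2 to 15.5, 14.1 and 14.3 (log2 fold change -0.46, adjusted p = 0.000376), and IL1B from 8.45, 9.50 and 8.99 to 6.44, 7.18 and 6.20 (log2 fold change -0.44, adjusted p = 0.00893). IL1B lost its call without MOO replicate 3 or OO replicate 2, and the list had 3 lower genes without MOO replicate 3. The chemokine CXCL8 was not DE, with 189, 205 and 182 CPM in OO and 182, 166 and 181 in MOO (log2 fold change -0.12, adjusted p = 0.144), and IL6 had -0.09 (adjusted p = 0.361). IL24, a cytokine outside the list that was picked after its value was seen for its small p, read 103, 99.1 and 104 and 66.0, 65.2 and 64.7 CPM (log2 fold change -0.64, adjusted p = 4.44e-08).

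Immediate early genes and ERK feedback genes moved both ways. Of 19 measured, 3 were DE and higher and 8 were lower (median -0.116). DUSP1, a phosphatase that turns off MAP kinases, read 178, 181 and 168 CPM with OO and 132, 145 and 135 with MOO (log2 fold change -0.35, adjusted p = 3.77e-05). IER3 fell from 1278, 1211 and 1184 to 968, 1078 and 1017 CPM (log2 fold change -0.26, adjusted p = 0.000468), and FOSL2, JUN, EGR1, DUSP5, PHLDA1 and FOSL1 fell by between 0.14 and 0.23 on the log2 scale. FOS went the other way, from 19.4, 23.4 and 21.0 to 27.2, 25.2 and 25.9 CPM (log2 fold change 0.30, adjusted p = 0.0102), as did the ERK phosphatases DUSP4 (0.19) and DUSP6 (0.19). Of 8 genes of the EGF receptor family and its ligands, EGFR fell, from 242, 281 and 262 to 214, 225 and 237 CPM (log2 fold change -0.21, adjusted p = 0.0113), and the ligand TGFA was at 0.16. The call of EGFR was lost without MOO replicate 1 or OO replicate 2, and that of TGFA was lost in 10 of 14 alternatives, DESeq2 and all but one of the fits without a library among them. Of the immediate early genes, 5 were lower without MOO replicate 3 or OO replicate 2, and FOS lost its call without OO replicate 1.

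Transcripts that host small nucleolar RNAs in their introns had negative values throughout. Of 9 measured, 7 were DE and lower, though none was when all libraries of the same batch and time, or all 54, set the spread, and in all 9 no MOO value overlapped an OO value, with MOO lower, which held for 13.2% of all genes. The median was -0.285. EPB41L4A-AS1 read 54.8, 49.8 and 51.3 CPM with OO and 39.5, 37.3 and 36.9 with MOO, a log2 fold change of -0.45 ± 0.055 (SE, adjusted p = 1.38e-05). GAS5 read 229, 256 and 279.9 and 218, 202 and 195 CPM (log2 fold change -0.32, adjusted p = 0.00116), and ZFAS1 243, 237 and 257 and 207, 191 and 194 (log2 fold change -0.31, adjusted p = 0.000124). The untreated means were 13.4, 80.8 and 83.2 CPM, in that order, so that MOO was between untreated and OO in all 3. SNHG15 fell by 0.36, TAF1D by 0.28, SNHG12 by 0.26 and SNHG8 by 0.25. SNHG1 (-0.12) and SNHG5 (-0.13) were not DE, and of 15 ribosomal protein genes, whose transcripts begin, like those of several hosts, with a run of pyrimidines, none was DE (from -0.10 for RPL13 to 0.04 for RPL10).

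Genes tied to DNA alkylation were examined because of what the aglycone of macrozamin is known to do. Of 13 measured repair genes, 4 were DE and higher and none lower (median 0.114). MSH6, a subunit of a mismatch sensor, went from 53.0, 55.4 and 57.3 to 68.9, 62.7 and 66.2 CPM (log2 fold change 0.26, adjusted p = 0.00259). FEN1, a flap nuclease of replication and repair, rose by 0.23 and PARP1, a sensor of strand breaks, by 0.20 (adjusted p = 0.0042 and 0.00451). MSH6, FEN1 and PARP1 were below their untreated means in MOO, and MSH6 and FEN1 also serve replication. The glycosylase gene MPG (0.01) and the dealkylases ALKBH2 (0.14) and ALKBH3 (-0.11) were not DE. MGMT, the direct reversal enzyme for alkylated guanine, was not expressed enough for a test: its counts were 0, 2 and 1 in OO, 0, 0 and 0 in MOO, and 0, 0 and 1 in untreated cells.

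Of 20 p53 target genes, 3 were DE (15%, beside 9.72% of all genes). All of them were lower, which held for 3.82% of all genes, and the list's median was -0.0549. CDKN1A, the cell cycle inhibitor p21, read 323, 319 and 321 CPM with OO and 271, 286 and 259 with MOO, a log2 fold change of -0.24 ± 0.044 (SE, adjusted p = 0.00101), with 158 ± 5.80 CPM (SD, n = 3) in untreated cells. GADD45A read 327, 319 and 324 and 266, 272 and 269.9 CPM (log2 fold change -0.26, adjusted p = 0.000177), and SESN2, also an ATF4 target, 103, 105 and 103 and 84.0, 93.7 and 79.3 (log2 fold change -0.27, adjusted p = 0.00199). All 3 were above their untreated means in both groups and lower in MOO without overlap. MDM2 (0.06), BAX (-0.06) and XPC (-0.03) were not DE. Of 15 apoptosis regulators 1 was DE, where 9.72% of all genes were: the survival gene BCL2L1, at 0.15 (adjusted p = 0.0247), a call lost without MOO replicate 1 or any one of the OO replicates.

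CYP1A1, the classic target of the aryl hydrocarbon receptor, was not DE: it had 7.56, 6.07 and 5.99 CPM with OO and 3.95, 6.33 and 6.37 with MOO, overlapping values (log2 fold change -0.23, adjusted p = 0.398), and 1.23 ± 0.142 CPM (SD, n = 3) in untreated cells. Of 6 measured targets of that receptor, NQO1 rose and TIPARP fell. NQO1, a quinone reductase, went from 108, 101 and 109 to 133, 133 and 124 CPM (log2 fold change 0.30, adjusted p = 0.000253) and TIPARP, an ADP-ribosyltransferase, from 77.1, 77.8 and 82.5 to 68.8, 64.3 and 65.4 (log2 fold change -0.26, adjusted p = 0.00166). Of 16 NRF2 targets, 4 were DE and higher and none lower, yet the list's median was -0.0407. They included NQO1 and the makers of NADPH ME1 (0.24) and PGD (0.24), with adjusted p = 0.0111 and 0.000753 for the latter genes. HMOX1 (-0.02), GCLM (0.02) and TXNRD1 (0.07) were not DE. Of 5 metallothionein and zinc transport genes, 2 were DE and higher (median 0.291). MT1E, a metal-binding protein, read 91.2, 89.0 and 93.3 CPM with OO and 149.6, 122 and 140.3 with MOO (log2 fold change 0.59, adjusted p = 1.03e-06), above the untreated 84.2 ± 3.93 CPM (SD, n = 3). MT2A read 517, 521 and 531 and 729.8, 604 and 704 CPM (log2 fold change 0.38, adjusted p = 6.75e-05), and in both genes MOO replicate 2 was the lowest MOO library. MT1X (0.10) and the zinc exporter SLC30A1 (0.01) were not DE, and the metallothionein genes are similar enough that reads may be split between them.

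The genes with the largest changes, taken from DE genes whose groups did not overlap and whose mean reached 1 CPM, were mostly of low level. LGALS12, a galectin, led the rises, with 2.32, 1.84 and 1.33 CPM in OO and 5.15, 5.22 and 6.02 in MOO (log2 fold change 1.59 ± 0.18 (SE, adjusted p = 3.84e-06)). Untreated cells had 81.0 ± 6.36 CPM (SD, n = 3), so that both treated groups were far below it. E2F2, a factor of replication genes, went from 0.603, 0.628 and 0.749 to 1.63, 2.01 and 1.48 CPM (log2 fold change 1.36, adjusted p = 0.00191), and CDCA7, a Myc-responsive cell cycle gene, from 2.65, 2.47 and 3.20 to 6.01, 5.64 and 5.67 (log2 fold change 1.06, adjusted p = 4.03e-05). NLGN1, SERTAD4, PLEKHS1, CLDN2, APLN, FAM111B and LYNX1 followed, with log2 fold changes from 0.82 for LYNX1 to 1.46 for NLGN1. BMP4, a secreted growth factor, was the most precisely measured of them: 59.7, 60.0 and 51.3 CPM in OO against 91.8, 99.6 and 103 in MOO (log2 fold change 0.79, adjusted p = 4.44e-08), with 562 ± 27.5 CPM (SD, n = 3) in untreated cells. The acute phase genes SAA1 (0.76) and SAA2 (0.78) are close copies whose reads may be split, and the cathepsin gene CTSO rose by 0.76. The 15 genes that rose most were all lower in OO than in untreated cells. The same OO libraries enter the ranking and this comparison, and a low OO value favours both, so it is a description only.

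ALOXE3, an epidermal lipoxygenase, led the falls, with 3.16, 4.10 and 2.41 CPM in OO, 0.601, 1.50 and 1.35 in MOO and a mean of 0.0457 in untreated cells (log2 fold change -1.48 ± 0.26 (SE, adjusted p = 0.00073)). IL6R, the interleukin-6 receptor, read 7.19, 7.87 and 7.53 and 4.12, 3.46 and 3.58 CPM (log2 fold change -1.01, adjusted p = 1.38e-05), with 0.508 ± 0.0460 CPM (SD, n = 3) in untreated cells. HECW2, a ubiquitin ligase, read 7.19, 5.94 and 5.95 and 2.96, 2.86 and 3.93 CPM (log2 fold change -0.96, adjusted p = 0.000156). In these 3 genes the OO libraries were the highest and MOO lay between them and untreated cells. Here too the OO libraries enter both the ranking and the comparison with untreated cells. The rest of the falls were DHDH, ZNF474, ADPRH, AMZ1, FOXA3, FAM131C, RNF223, S100P, the non-coding LINC02392 and LINC01589, the pseudogene HSPA7 and GOLGA6C, a member of a family of near-identical genes whose reads may be split. Their log2 fold changes ran from -1.40 for LINC02392 to -0.86 for S100P, and their MOO means were between 0.576 CPM for ZNF474 and 1.97 CPM for HSPA7, so that few reads carried each. Several of these calls rested on single libraries: S100P lost its call in all 6 fits without a library and with the replicate block, FAM131C in 5, AMZ1 and GOLGA6C in 4, FOXA3 and RNF223 in 3, and ADPRH and LINC01589 in 2 of them. Among the rises PLEKHS1 and LYNX1 lost theirs in 3.

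The remaining lists had between 0 and 8 DE genes each, and many of these calls rested on single libraries. The shares DE ran from 0% for the respiratory chain to 38.1% for glycolysis and hypoxia, beside 9.72% of all genes. They were 7.14% for the clock genes and 7.69% for the signalling genes given last, both below the share of all genes. Of 21 genes of glycolysis and hypoxia, 3 were DE and higher (ALDOC 0.29, ENO1 0.22 and LDHA 0.16, all glycolytic enzymes) and 5 were lower (ANGPTL4 -0.43, NDRG1 -0.35, ADM -0.28, VEGFA -0.16 and SLC2A3 -0.16). The lower calls numbered 3 without MOO replicate 1 and 2 without MOO replicate 3 or any one of the OO replicates, and ANGPTL4 was lost in 8 of 14 alternatives, DESeq2 among them. NDRG1, a stress and hypoxia gene, read 1062, 1048 and 1100.1 CPM in OO and 857, 870.0 and 793 in MOO (log2 fold change -0.35, adjusted p = 1.42e-05). None of 12 respiratory chain genes was DE, with log2 fold changes between -0.154 and 0.0890. Of 18 interferon-stimulated genes, BST2 (0.23) and DDX58 (0.21) were DE and higher, and IFIT2 (-0.26) and ISG15 (-0.24) lower. Of 16 genes of the TGF-beta pathway, TGFB2 (0.27) and TGFBI (0.16) rose and the inhibitor SMAD7 fell (-0.27). Of these, TGFBI was lost without MOO replicate 3 or any one of the OO replicates, SMAD7 and DDX58 in 3 of the 6 fits without a library and IFIT2 in 1. Of 14 clock genes, NR1D1 was DE, lower at 22.5, 23.1 and 23.0 CPM against 33.6, 32.0 and 33.9 in OO (log2 fold change -0.53, adjusted p = 5.3e-06). Of 8 polyadenylated histone genes, whose reads can be shared within the family, HIST1H2AC (-0.25) and HIST1H1C (-0.24) were DE and lower and H2AFX (0.23) was higher. HIST1H2AC lost its call in 9 of 14 alternatives, DESeq2 and every fit without a library among them, HIST1H1C without MOO replicate 1 or OO replicate 1, and H2AFX without OO replicate 2 or OO replicate 3. A list of signalling genes that recur in the study's own gene sets had 13 measured members, and CCND1, cyclin D1, was the one that was DE: 363, 356 and 357 CPM in OO, 442, 472 and 474 in MOO (log2 fold change 0.37, adjusted p = 4.8e-06), with 801 ± 34.0 CPM (SD, n = 3) in untreated cells. The study chose that list using RNA-seq of CKI-treated cells deposited with this series, so it is no independent evidence of a direction. CTNNB1, beta-catenin, had 255, 249 and 254 CPM in OO and 266, 262 and 270.5 in MOO, with no call (log2 fold change 0.08, adjusted p = 0.252).

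The untreated libraries show where these changes sat. The differences of OO and of MOO from untreated cells share the untreated libraries, so they are set side by side and not tested here. For DNA replication the median log2 difference from untreated cells was -1.52 in OO and -1.09 in MOO, and for mitosis it was -1.08 and -0.784. Both lists were thus low in both groups, and less so with macrozamin. The chaperones of the endoplasmic reticulum had medians of 1.45 in OO and 1.33 in MOO, the ATF4 and CHOP genes 1.61 and 1.25, the snoRNA hosts 1.19 and 0.904, and the cytokine genes 1.08 and 0.780. These lists were high in both groups, and less so with macrozamin. Sterol and fatty acid synthesis had -0.252 in OO and 0.00877 in MOO, the actin list -0.376 and -0.218, the YAP and TEAD list -0.205 and -0.128, and metallothioneins 0.115 and 0.706. Over all genes the medians were 0.0252 and 0.0142. Metallothioneins were further from untreated cells in MOO than in OO, unlike the other lists named so far in this paragraph. Several more lists were further away in MOO too. Among them were interferon-stimulated genes (-0.891 in OO and -0.994 in MOO) and glycolysis and hypoxia (0.0623 and 0.23). The EGF receptor family (0.103 and 0.188) and the clock genes (0.307 and 0.341) were others.

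**Figure D3:**
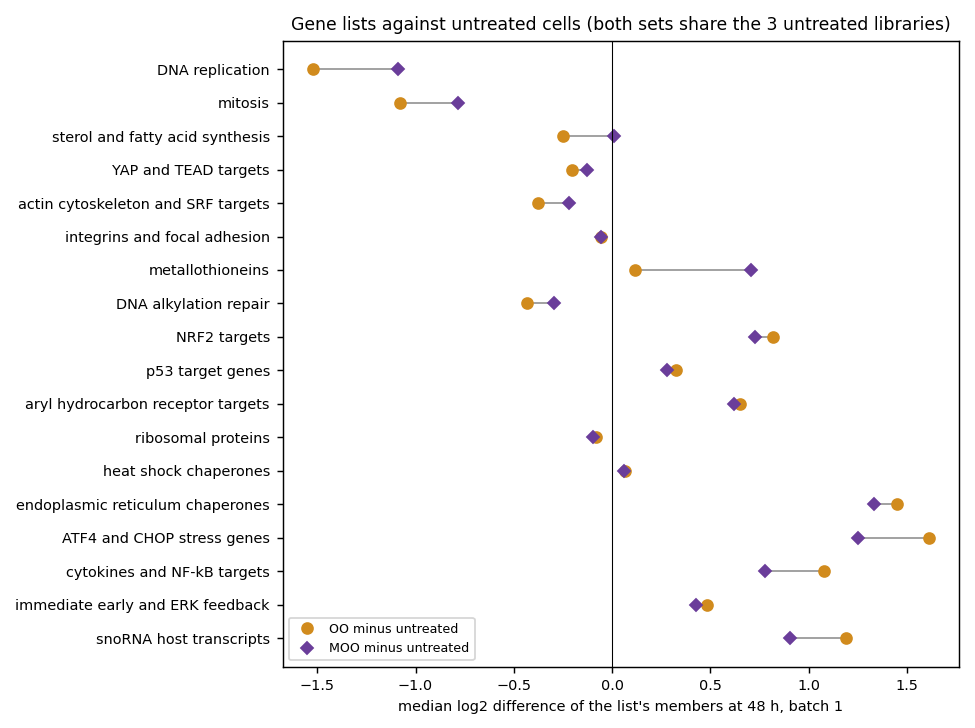
Median log2 difference from untreated cells at 48 h for a selection of the gene lists, with OO and MOO side by side on one axis. DNA replication sits at -1.52 in OO and -1.09 in MOO, and the ATF4 and CHOP genes at 1.61 and 1.25.

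At 24 h the same comparison gave no DE gene among 14211 tested (0%) by edgeR's quasi-likelihood test, with 569 at an unadjusted p under 0.05, and none by DESeq2. The 3 OO libraries at 24 h differed from each other, by a root mean square of 0.643 log2 CPM between replicates 1 and 2, 0.478 between 2 and 3 and 0.438 between 1 and 3, where the MOO libraries differed by 0.273 to 0.364. OO replicate 1 was 0.276 to 0.353 from the MOO libraries, closer than to its own group. The labels of the 24 h OO libraries may need checking, and every count at 24 h and of the difference between the times rests on them. Across 930 genes that differed over 2-fold between the untreated cells of the 2 batches at 48 h, the deviation of OO replicate 2 from the other replicates followed the batch difference with a slope of 0.6, that of replicate 1 with -0.406 and that of replicate 3 with -0.194, against -0.0459 to 0.0828 for MOO. Each replicate was set against the mean of the others in its group, so the 3 slopes of a group sum to 0 and are not separate results. The negative slopes of replicates 1 and 3 follow in part from replicate 2 being in their reference. At 24 h the slope was also 0.65 for CKI replicate 1 and 0.596 for N-MacOmtOspc replicate 2, both of batch 1. In their titles these libraries and OO replicate 2 alone had no number after the mixture name. What set them apart was not tested. The part of the spread among the OO libraries in the count at 24 h was measured by leaving out libraries. Then 2184 genes were DE without OO replicate 1 (976 higher and 1208 lower), 2 without OO replicate 2, and 0 when any one of the others was left out. The lists had medians at 24 h of 0.188 for DNA replication, 0.0263 for mitosis, -0.205 for sterol and fatty acid synthesis and -0.129 for chaperones of the endoplasmic reticulum, none with a DE member.

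The difference between the effect at 48 h and at 24 h passed the test in 2 of 14760 genes (0.0136%). MMP1 was lower with macrozamin at 48 h and had a higher mean with it at 24 h, where the OO libraries read 45.9, 35.6 and 47.3 CPM and the MOO libraries 62.4, 61.5 and 63.8, in a scaling of all 12 libraries. The difference of the log2 fold changes was -1.05 ± 0.14 (SE, adjusted p = 0.034), and the 24 h value by itself, 0.54, had an adjusted p of 0.696. DUSP1 had 84.0, 80.7 and 79.6 CPM in OO at 24 h and 113, 108 and 109 in MOO, and a difference of -0.78 ± 0.094 (SE, adjusted p = 0.0247). The OO and MOO values of both genes did not overlap at either time. The number of genes that passed was 3365 without OO replicate 1 at 24 h, 16 without OO replicate 2, 2 without OO replicate 3 and 0 when any other library was left out, so that neither call held in every such fit. In the fit without OO replicate 2, a choice made after seeing the data, FOS (-1.33, adjusted p = 0.0011) and HSPA1A (-0.69, adjusted p = 0.04) passed beside MMP1 (-0.93) and DUSP1 (-0.77), and FOS was DE at 24 h by itself, at 1.63 (adjusted p = 0.0268). DESeq2 gave 33 genes for the difference with all libraries.

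Macrozamin could be compared with its absence in other mixtures, with no library in common. Whole CKI set against N-Mac at 48 h gave 10540 DE genes out of 14469 (72.8%), with 5243 higher (36.2%) and 5297 lower (36.6%). Of the 848 genes DE and higher with macrozamin in the presence of the alkaloids and tested in both, 716 (84.4%) were DE and higher in CKI too, and 66 (7.78%) were DE and lower. Of 549 that were DE and lower, 429 (78.1%) were DE and lower in CKI, and 58 (10.6%) were DE and higher. The shared genes made up 13.7% and 8.10% of the 2 longer CKI lists. Across the 1397 genes DE with the alkaloids the log2 fold changes had a Pearson correlation of 0.764, and across 14076 genes one of 0.43, as descriptions across genes, which are not independent replicates. CKI and N-Mac are of batch 2, so the batch and the mixture cannot be told apart in this comparison. Whole CKI and N-Mac may also differ in how they were prepared, which was not tested. CKI lacking other single components was sequenced in batch 2 too and was not compared here. How many of the 10540 genes would change on any such removal was therefore not tested.

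**Figure D4:**
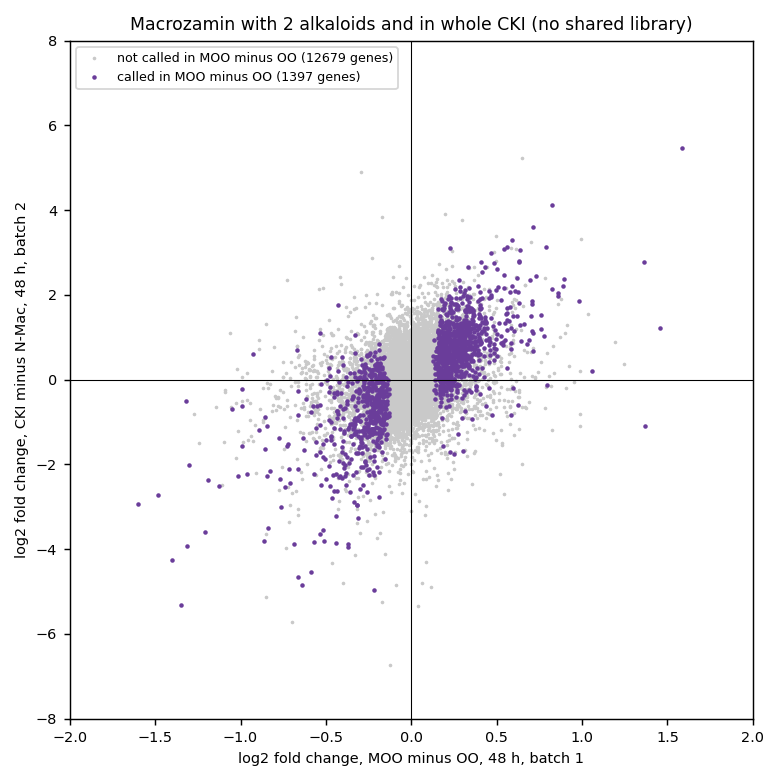
Log2 fold change with macrozamin added to the alkaloids (horizontal axis) against that in whole CKI over N-Mac (vertical axis) at 48 h, one point per gene, with genes DE in the first comparison drawn in colour. Most of the 1397 coloured genes sit in the quadrants of equal sign, and the vertical spread is wider than the horizontal.

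The same lists were larger in size in CKI. Mitosis had a median of 0.317 with the alkaloids and 1.17 in CKI, with 20 of 20 genes DE and higher in both. DNA replication had 0.349 and 0.961 (19 of 20 DE and higher in CKI), sterol and fatty acid synthesis 0.241 and 0.812, the ATF4 and CHOP genes -0.123 and -1.20, and chaperones of the endoplasmic reticulum -0.125 and -1.01. The snoRNA hosts had -0.285 and -2.05, with all 9 DE and lower in CKI. KIF20A rose by 0.56 and 1.70 on the log2 scale, FASN by 0.40 and 1.90, BMP4 by 0.79 and 3.12, and CTGF by 0.61 and 2.10, while GAS5 fell by 0.32 and 2.96 and DDIT3 by 0.32 and 2.96. In the test of the difference between the mixtures 8556 of 14931 genes (57.3%) passed, 3915 with a more positive effect beside the alkaloids (26.2%) and 4641 with a less positive one (31.1%). Among them were 19 of the 20 mitosis genes, 17 of 20 replication genes and 9 of 9 snoRNA hosts, each with the smaller effect beside the alkaloids. Some lists did not run alike. Ribosomal protein genes had medians of -0.0139 with the alkaloids and -0.805 in CKI, where 14 of 15 fell, and cytokine genes -0.174 and -3.85, where all 17 measured fell. CYP1A1 had -0.23 with the alkaloids and 2.86 in CKI, and its list 1.43 in CKI with 5 of 6 genes DE and higher. MT1E, which rose by 0.59 with the alkaloids, had -0.19 in CKI, F3 0.22 and -1.70, and PLAU 0.43 and -0.62.

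In CKI without the alkaloids, N-OmtOspc against N-MacOmtOspc, 5806 of 14824 genes (39.2%) were DE with macrozamin, 2894 higher (19.5%) and 2912 lower (19.6%). N-MacOmtOspc replicate 2 stood apart from its group, and without it the number was 7776. Of 850 genes DE and higher beside the alkaloids, 295 (34.7%) were DE and higher here and 147 (17.3%) DE and lower, and of 549 that were lower, 172 (31.3%) were DE and lower and 86 (15.7%) DE and higher. The shared genes were 10.2% and 5.91% of the lists of the other comparison. Across the 1399 genes the Pearson correlation was 0.312, as a description. Mitosis had a median of 0.714 with 17 of 20 genes DE and higher, and DNA replication 0.356 with 10 of 20 higher and 2 lower. KIF20A rose by 1.14 and PLK1 by 1.36, while MCM3 had -0.03 and TYMS 0.20. Chaperones of the endoplasmic reticulum had a median of -0.946 with 15 of 16 lower. In contrast the snoRNA hosts had -0.0250 with none DE, the actin list -0.389 with 8 of 16 lower and none higher, and the YAP and TEAD list 0.0128 with 1 of 12 lower. ACTG1 had 0.48 beside the alkaloids and -0.78 here, HSPA1A -0.58 and 0.38, and CTGF 0.61 and 0.03. The difference between these backgrounds passed the test in 4946 of 15294 genes (32.3%), 57.2% of them with a more positive effect beside the alkaloids. That split was 32.8% with library sizes alone in place of TMM scaling, where the median of all genes was -0.144 and not 0.00827. The split of DE genes with macrozamin in CKI without the alkaloids went from 49.8% to 68.8% higher, with a median of 0.126. The directions above for the lists of this background are therefore relative to the TMM scaling.

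**Figure D5:**
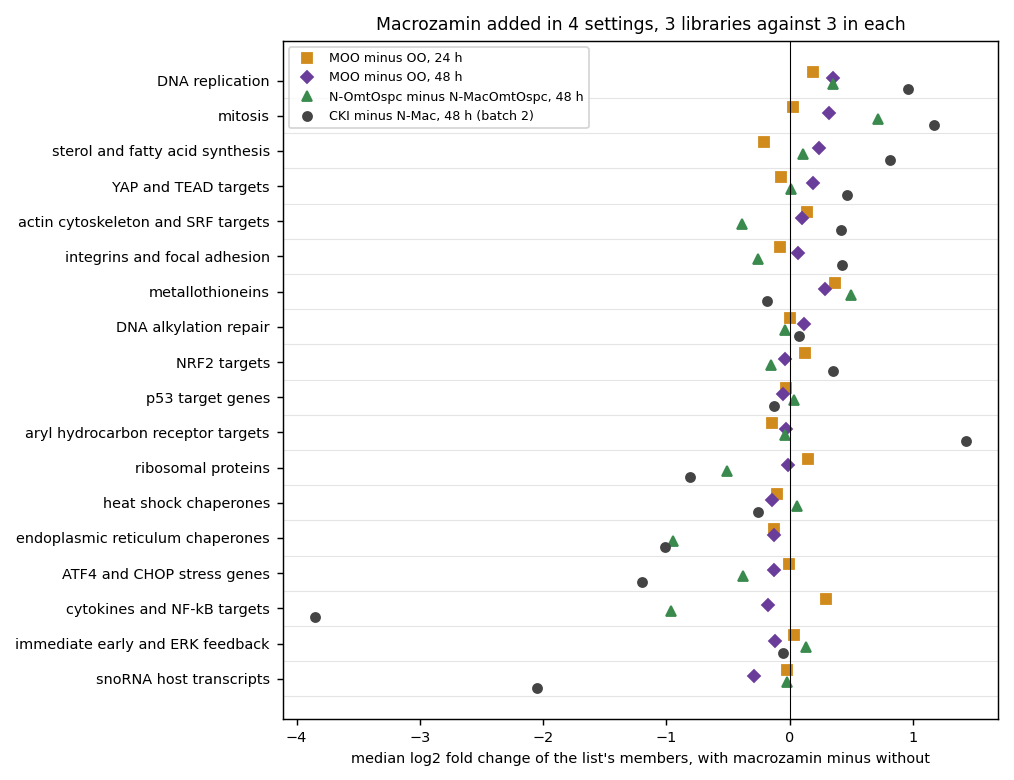
Median log2 fold change of a selection of the gene lists with macrozamin present over absent, in 4 settings: beside the alkaloids at 48 h and at 24 h, in whole CKI at 48 h, and in CKI lacking the alkaloids at 48 h. Mitosis is at 0.317, 0.0263, 1.17 and 0.714 in that order, and the snoRNA hosts are at -0.285, -0.0252, -2.05 and -0.0250.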

How the data were processed

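RNA was extracted from MDA-MB-231 cells, poly(A) RNA was sequenced as strand-specific paired-end libraries, and the authors deposited raw read counts of 27978 genes for 54 libraries in 18 groups of 3. The submitters' processing notes name FastQC 0.11.4, Trim Galore 0.3.7, STAR 2.5.3a, Subread 1.5.2 with featureCounts, edgeR 3.22.3 and build hg19 without giving roles, and settings such as the strand used in counting were not given in the sources used here. Promoter sequences came from RefSeq tables of another build, GRCh38.p14, and were matched by gene symbol. No count column of the table was left unassigned to a sample. From these counts, edgeR 4.0.16 in R 4.3.3 (filterByExpr, TMM factors, glmQLFit and glmQLFTest) was run on the 6 libraries compared, or on 12 for a difference between comparisons, with Benjamini-Hochberg adjustment over all genes tested and calls at 0.05. Levels for UT, OO and MOO at 48 h come from one TMM scaling of 9 libraries. Alternatives were DESeq2 1.42.0 (on the same counts), other scalings, other filters, wider fits, a replicate block and leaving out libraries. Scripts were tested on simulated data. Genes named were the 15 largest rises and falls among DE genes without overlap and with a mean of at least 1 CPM, up to 4 DE members per list, 5 per difference, and CYP1A1, MGMT, CDKN1A, ACTB, CCND1, CTNNB1 and CDH1, to which undetected members and a few genes picked after seeing values were added and said to be so; a few genes that this rule names are not reported here. The genes compared, the 30 lists and the tests were chosen with earlier results of these data known. The design calls the replicates biological but does not say how the cultures were separated, and p-values cover the spread between these libraries. List members CCN1 and CCN2 are named CYR61 and CTGF, as in the table. Reads of overlapping or near-identical genes may be split, and genes of few reads are imprecise by counting error alone.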

Additional observations from a re-analysis of the deposited data

Results flagged for a closer look

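Each result here was marked because the effect of macrozamin differed, by the test of the difference itself, between times or between mixtures. Between 48 h and 24 h, 2 genes differed, MMP1 with a difference of log2 fold changes of -1.049 and DUSP1 with -0.7754. Between the alkaloids alone and CKI without the alkaloids, 4946 genes differed. The largest difference, counting genes whose mean reached 1 CPM, was -6.296 for TNFRSF13B, a receptor known from B cells, with an SE of 1.75 and counts of 1, 1 and 1 in OO, 0, 0 and 0 in MOO, 6, 12 and 7 in N-MacOmtOspc and 72, 77 and 96 in N-OmtOspc, so that the fitted size depends on counts at or near 0 and is no bound. DMBX1 (-3.619), FBXW4P1 (-3.467), WNT11 (-3.188) and MCF2L (-3.184) followed; of these 5 genes only WNT11 had reads enough in OO and MOO to be tested there, and the other 4 entered the test of the difference through the libraries of CKI without alkaloids, where they were higher. WNT11, a secreted signalling protein, had counts of 21, 18 and 19 in OO, 11, 10 and 6 in MOO, 55, 50 and 41 in N-MacOmtOspc and 229, 219 and 223 in N-OmtOspc, and the highest count of DMBX1, FBXW4P1 or MCF2L in OO or MOO was 18.

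Between the alkaloids alone and whole CKI, 8556 genes differed, and the mixture and the batch cannot be told apart. CXCL8, a neutrophil chemokine, had a difference of 6.589. It read 196, 212 and 189 CPM in OO, 190.2, 172 and 189 in MOO, 2227, 2342 and 2239 in N-Mac and 21.0, 23.4 and 20.7 in CKI, so the libraries without macrozamin were far above those with it in CKI and near them beside the alkaloids. The chemokine CCL20 had a difference of 7.373, with counts of 5, 1 and 3 in OO, 3, 0 and 5 in MOO, 152, 143 and 160 in N-Mac and 0, 1 and 1 in CKI. KLHDC7B (5.931) had 46 to 77 counts in OO and MOO, 8, 6 and 4 in N-Mac and 0 in each CKI library, so its fitted size is no bound, and neither is that of CCL20. KLHDC7B had too few reads to be tested in CKI and N-Mac, and CCL20 too few in OO and MOO. Each entered the test of the difference through the libraries where it was higher. KRT33B, a hair keratin with close relatives, had 5.353, with 38, 28 and 31 counts in N-Mac and 1, 1 and 0 in CKI. SLCO2B1, a membrane transporter, had -5.228, with 8, 6 and 11 counts in N-Mac against 205, 273 and 270 in CKI and 8, 12 and 12 in OO against 7, 11 and 8 in MOO. With 3 libraries per group no library could be marked as standing apart by the rule used for larger groups.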

How the results depend on the processing

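For macrozamin beside the alkaloids at 48 h, against 1402 DE genes, the number was 1384 with RLE scaling, 1452 with library sizes alone, 1166 with DESeq2, 1675 without the filter and 1418 at a mean of at least 1 CPM. It moved to 307 when all libraries of the same batch and time set the spread, to 27 when all 54 did, and to 19 with a log2 fold change of at least 1. With all libraries of the batch and time, 10 of 20 replication genes, 12 of 20 mitosis genes, 6 of 22 sterol genes, 1 of 17 ATF4 and CHOP genes, 2 of 11 heat shock genes and none of the snoRNA hosts or endoplasmic reticulum chaperones stayed DE, and the cause was not tested. No gene DE at 48 h was DE in the opposite direction in any of these fits. Leaving out one library gave 855 to 2246 genes at 48 h, 0 to 2184 (without OO replicate 1) at 24 h, 0 to 3365 (without the same 24 h library) for the difference between times, 3813 to 7776 in CKI without the alkaloids, 3974 (without OO replicate 2) to 6654 (without N-MacOmtOspc replicate 2) for the difference from that background, 10031 to 10387 in whole CKI and 8120 to 8679 for the difference from it. With the replicate block the number at 48 h was 1728, and same-numbered OO and MOO libraries had deviations from their group means that correlated at -0.0424, 0.0387 and -0.0151, so that they shared a number and no more. The difference between times gave 33 genes with DESeq2, 0 with all libraries of the same batches and times, 0 with all 54, 0 with the replicate block and 1 with a log2 difference of at least 1. The same size requirement left 1201 genes in CKI without the alkaloids, 1014 for the difference from it, 2151 in whole CKI and 1778 for the difference from whole CKI, which was 5390 with all 54 libraries. The log2 fold change of KRT33B, not DE at 0.0421, ranged from -0.1282 (without MOO replicate 3) to 0.1607 (without MOO replicate 1) and was -0.01326 without OO replicate 2. Genes of few reads are limited by depth.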

Other observations

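Outside the lists, some of the genes of smallest p are given here as single values, picked after they were seen and standing for no group. S100A4, a motility-linked calcium binder, had 169, 159 and 152 CPM in OO and 255, 238 and 251 in MOO (log2 fold change 0.63, adjusted p = 4.44e-08), and CD59, which shields cells from complement, 138, 138 and 135 and 206, 194 and 206 (log2 fold change 0.56, adjusted p = 5.38e-08). The BMP and activin binder FST read 28.4, 27.3 and 28.2 and 42.9, 42.5 and 43.4 CPM (log2 fold change 0.62, adjusted p = 2.13e-07). PLXNA1, a semaphorin receptor, was higher by 0.59 on the log2 scale, IGFBP7 by 0.58, IGFBP4 by 0.51, the Wnt inhibitor DKK1 by 0.47 and thrombospondin THBS1 by 0.39, while other genes of secreted or surface proteins were lower, such as IL24 (-0.64), MMP1 (-0.51) and IL6R (-1.01).

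UPP1, uridine phosphorylase, read 692, 657 and 673 CPM in OO and 478, 466 and 456 in MOO (log2 fold change -0.53, adjusted p = 5.38e-08). TXNIP, a brake on glucose uptake, read 737, 708 and 762 and 551, 518 and 510.1 CPM (log2 fold change -0.48, adjusted p = 3.03e-07), with 254 ± 8.40 CPM (SD, n = 3) in untreated cells. The lipid droplet genes PLIN2 and G0S2 fell by 0.50 and 0.47 on the log2 scale (adjusted p = 4e-07 and 1.31e-06) and the hexokinase-like gene HKDC1 fell by 0.41. In a fit without OO replicate 2 at 24 h, of the genes lower with macrozamin at 48 h, 408 of 543 (75.1%) had a negative value at 24 h, and of those higher at 48 h, 518 of 851 (60.9%) had a positive one, beside 49.1% positive over all genes. With all libraries kept these shares were 53.3% and 53.9%, and this setting was chosen after seeing the data.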
